A study of Mus musculus with 49 samples.

Results

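The aminoacyl-tRNA synthetases are the enzymes that join each amino acid to its tRNA, and their mRNAs were followed here in CD8+ T cells cultured with IL-2. The family was taken as 36 genes of the 23992 gene symbols in the deposited tables, by a rule on gene symbols that uses no measured value. It holds 20 cytosolic enzymes (Aars, Cars, Dars, Eprs, Farsa, Farsb, Gars, Hars, Iars, Kars, Lars, Mars, Nars, Qars, Rars, Sars, Tars, Vars, Wars and Yars) and 16 mitochondrial ones, whose symbols end in 2 (Aars2, Cars2, Ears2, Fars2, Hars2, Iars2, Lars2, Mars2, Nars2, Pars2, Rars2, Sars2, Tars2, Vars2, Wars2 and Yars2). All 36 were present in the tables and all 36 passed the filter on low counts, which kept 15566 genes. Each gene was represented by its longest transcript, and gene positions below are RefSeq's on GRCm38.p6. They span all of RefSeq's models of a gene, predicted ones included. Exons of Mars overlap those of Ddit3 on the other strand by 71 bases, and such overlaps also exist for Wars with Wdr25 (23 bases), Rars2 with Orc3 (7), Iars2 with Rab3gap2 (over a longer stretch) and Hars with Hars2 (4). Whether counting used strand is not given in the sources used here, so reads in these stretches could come from either gene.

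The cells were CD8+ T cells purified from mouse spleen on a C57BL/6J background. In STAT5A cells KI cells carried a homozygous Stat5a allele in which the tyrosine that is phosphorylated during signaling is replaced by phenylalanine. For STAT5B KI cells carried the corresponding change in Stat5b. WT cells of each line came from littermates, and in each KI the other Stat5 gene was left intact. Cells of each line and genotype were collected at 0 hr, without IL-2, and after 4, 24, and 48 hr of culture in which human recombinant IL-2 was present at 500 IU/ml. The 2 lines are called by the mutated gene below, so that STAT5A values come from the cells of one line and STAT5B values from those of the other. Each of the 16 groups has 3 libraries, except that the STAT5A KI group at 4 hr is described with 2. The mutation was made with CRISPR/Cas9 in the germ line, so every cell type of a KI mouse carries it, and the mice were adults of both sexes. The labels do not say whether replicates are separate mice or pooled mice, so p-values measure the spread between these libraries.

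Each synthetase recognizes its amino acid and the matching tRNAs, and the charged tRNA is then carried to the ribosome by an elongation factor. Cytosolic enzymes serve the translation of nuclear-encoded mRNAs, whereas the mitochondrial enzymes, encoded by separate nuclear genes, serve the few proteins that mitochondria translate themselves. Kars and Gars are exceptions, since the same gene supplies both compartments. Farsa and Farsb are the 2 subunits of a single phenylalanyl-tRNA synthetase, and Eprs charges both glutamate and proline. In mammals, 8 of the cytosolic genes (Dars, Eprs, Iars, Kars, Lars, Mars, Qars and Rars) encode enzymes of a multisynthetase complex held together by scaffold proteins. Several cytosolic synthetase genes are known targets of ATF4, the transcription factor of the amino acid response. IL-2 drives CD8+ T cells to grow and divide, which raises the demand for protein synthesis.

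Since many cytosolic members moved together, the sequences around their transcription start sites were read first. RefSeq promoter windows of 300 bases (250 before and 50 after the start, GRCm38.p6) were matched for 13 of the 20 cytosolic and 14 of the 16 mitochondrial genes. Cars, Hars, Lars, Nars, Rars, Vars, Wars, Hars2 and Pars2 are named only. Each window was searched on both strands for TTGCATCA, a site of the kind bound by ATF4 with C/EBP proteins, for TGATGNAAT, a related amino acid response element that can overlap it, for the E-box CACGTG bound by Myc, and for TTCNNNGAA, the GAS motif bound by STAT proteins. TTGCATCA was found in Aars, Iars, Tars and Yars, 4 of the 13 cytosolic windows, in 0 of the 14 mitochondrial windows, and in 0.896% of all 32817 windows. The 4 stretches below are shown because they carry this match, and capitals mark the matched letters, with positions counted from the transcription start that RefSeq's promoter table uses. That start can lie inside the span of the gene, as it does for Aars and Yars, for which RefSeq also has models that begin further upstream.
Aars, chr8:111033690-111033779, plus strand: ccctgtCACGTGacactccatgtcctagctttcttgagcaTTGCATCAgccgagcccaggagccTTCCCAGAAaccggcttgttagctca
Tars, chr15:11399655-11399684, minus strand: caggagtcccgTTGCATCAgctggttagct
Iars, chr13:49682126-49682155, plus strand: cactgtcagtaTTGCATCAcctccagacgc
Yars, chr4:129189895-129189924, plus strand: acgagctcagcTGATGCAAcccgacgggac
The match lies at −112 to −105 in Aars, at −15 to −8 in Tars, at 8 to 15 in Iars and, read on the opposite strand, at 4 to 11 in Yars. The Aars stretch also holds an E-box and a GAS motif, in capitals. TGATGNAAT was found in Aars and Iars, where it overlaps TTGCATCA, and in Gars, against 0.966% of all windows. The E-box was found in Aars, Farsb, Iars and Tars and in the mitochondrial Ears2, against 7.15% of all windows, and the GAS motif in Aars, Kars and Nars2, against 8.29%. A match of letters is not evidence that a factor binds there.

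The libraries differ in quality in ways that touch the values below. The 47 libraries used had 38715604 to 83708853 mapped reads. The library left out, the third STAT5A KI replicate of the 4 hr time, had 18122792 mapped reads, of which 5.68% lay on the longest transcripts. The second WT replicate from STAT5A at 4 hr was kept, with 44.9% on these transcripts, whereas the other 46 libraries had at least 68.7%. This share also moved with the groups. It was 69.2 to 71.9% in STAT5A line WT cells at 0 hr and 80.5 to 84.1% at 48 hr, and 83.2 to 84.4% in WT against 72.6 to 78.5% in KI cells of the STAT5B line at 48 hr. RPKM (reads relative to the length of the transcript and to the total mapped), used below for levels, moves with this share. The edgeR fit scales out a factor common to all genes of a library, but not a loss that differs between genes. All tests are edgeR quasi-likelihood tests on read counts with Benjamini-Hochberg adjustment over the 15566 genes, and "rose", "fell", "higher" and "lower" are used of genes with an adjusted p of at most 0.05. In bulk RNA, fewer cells of a type and less RNA per cell cannot be told apart.

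In unstimulated WT cells, the cytosolic enzymes were the more abundant class per transcript length. In STAT5A cells at 0 hr, Qars had a mean RPKM of 42.2 ± 3.92 (SD, n = 3), Kars 40.7 ± 3.16, Nars 38.3 ± 2.57 and Vars 35.7 ± 2.52. Neighbors in this order overlapped between libraries, so the order of these 4 is not resolved. Cars, the cysteine enzyme, was the least abundant cytosolic member, at 5.89 ± 0.198. Among the mitochondrial enzymes other than Lars2, which is treated separately below, Iars2 was highest at 12.6 ± 1.39 and Pars2 lowest at 1.17 ± 0.141. At 48 hr Kars led the cytosolic members at 114.9 ± 6.47, followed by Gars at 93.9 ± 7.27 and Vars at 91.1 ± 6.74, the last 2 overlapping. Qars, among the 4 named for 0 hr, stood at 50.3 ± 0.764, below the means of 10 other cytosolic enzymes and overlapping the nearest of them, Tars.

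After 48 hr with IL-2, nearly the whole cytosolic set had risen in WT cells. In each line 19 of the 20 cytosolic mRNAs rose and none fell. Of all genes tested, 34.1% rose and 37.7% fell for STAT5A, and 33.1% rose and 36.8% fell for STAT5B. The rise was at least 2-fold for 15 and 16 of the 20, against 14.3% and 14.6% of all genes. The median log2 fold change of the 20 was 1.32 for STAT5A and 1.41 for STAT5B, beside −0.12 and −0.13 over all genes. On log2(RPKM + 1) the median of all genes lay at 0.24 and 0.185 and that of the 20 at 1.49 and 1.49. Levels of all 20 lay higher in every 48 hr library than in every 0 hr library in both lines, which in RPKM held for 42.3% and 42.8% of all genes, while 31.7% and 35.4% lay lower. Members of the multisynthetase complex and the other 12 cytosolic members had similar medians, at 1.33 and 1.28 for STAT5A and 1.34 and 1.43 for STAT5B.

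Wars (chr12:108860030-108894175), the tryptophan enzyme, had the largest rise over both lines. For STAT5A its RPKM was 10.7, 13.3 and 13.9 in the 0 hr libraries and 81.7, 72.9 and 70.6 at 48 hr. In STAT5B cells it was 13.6, 14.4 and 16.2 at 0 hr and 65.1, 64.3 and 70.0 at 48 hr. No library of one time overlapped the other, with a log2 fold change of 2.36 ± 0.14 (SE; edgeR adjusted p = 1.28e-17) for STAT5A and 2.00 ± 0.14 (9.76e-16) for STAT5B. The longest transcript of Wars was not its transcript with the most reads, and with that other transcript the values were 2.44 and 2.08. Iars (chr13:49682130-49734267), the isoleucine enzyme of the multisynthetase complex, had RPKM values of 9.91, 9.48 and 9.39 at 0 hr and 37.4, 42.8 and 39.8 at 48 hr in the STAT5A line. Its values were 10.2, 10.8 and 9.59 and then 44.4, 41.9 and 43.0 in the STAT5B line. The 0 hr libraries spanned a narrow range, and the log2 fold changes were 1.85 ± 0.08 and 1.91 ± 0.08. Mars (chr10:127296221-127311786), the methionine enzyme, rose by log2 fold changes of 1.79 ± 0.13 and 1.65 in the STAT5A and STAT5B lines, from an RPKM of 10.2, 10.8 and 12.4 to 41.9, 47.5 and 43.6 in the STAT5A line and from 11.6, 13.9 and 14.4 to 47.6, 46.4 and 47.6 in the STAT5B line.

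Aars (chr8:111027778-111055569), the alanine enzyme, had RPKM values of 10.7, 12.5 and 11.4 at 0 hr and 37.2, 43.5 and 41.1 at 48 hr in the STAT5A line, and 11.7, 12.6 and 12.6 against 44.9, 46.7 and 44.4 in the STAT5B line. Its log2 fold changes were 1.61 ± 0.09 and 1.71. Rars (chr11:35808381-35834528), the arginine enzyme, went from 19.5, 19.0 and 20.7 to 61.0, 69.2 and 70.0 in the STAT5A line and from 18.2, 18.5 and 18.5 to 69.1, 69.9 and 69.6 in the STAT5B line. These are log2 fold changes of 1.55 ± 0.07 and 1.74, and the 3 libraries of each group lay close together. Tars (chr15:11383663-11399658), the threonine enzyme, is a gene the study lists among direct STAT5 targets. The study's criterion was reduced mRNA together with reduced STAT5 binding in KI cells of at least 1 line. The promoter window read above held no GAS motif for Tars, which does not bear on binding elsewhere at the gene. Its RPKM values were 14.8, 16.0 and 17.3 at 0 hr and 47.6, 56.7 and 55.6 at 48 hr in the STAT5A line. For STAT5B they were 15.3, 16.4 and 17 and then 57.8, 56.3 and 56.0, and the log2 fold changes were 1.52 ± 0.07 (adjusted p = 5.76e-21) and 1.63 (8.93e-22), both by edgeR.

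Qars (chr9:108508005-108515941), the glutamine enzyme and a member of the complex, stood apart from the other cytosolic members. Its RPKM was 40.7, 39.3 and 46.7 at 0 hr and 49.5, 50.4 and 51.0 at 48 hr in the STAT5A line, and 42.8, 47.1 and 44.8 against 52.4, 51.4 and 52.1 in the STAT5B line. The libraries of the 2 times did not overlap in RPKM, but the log2 fold changes fitted on counts were 0.05 ± 0.07 (edgeR adjusted p = 0.577) and 0.04 (0.662). On log2(RPKM + 1) they were 0.25 and 0.21, which did not pass with limma either.

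**Figure D1:**
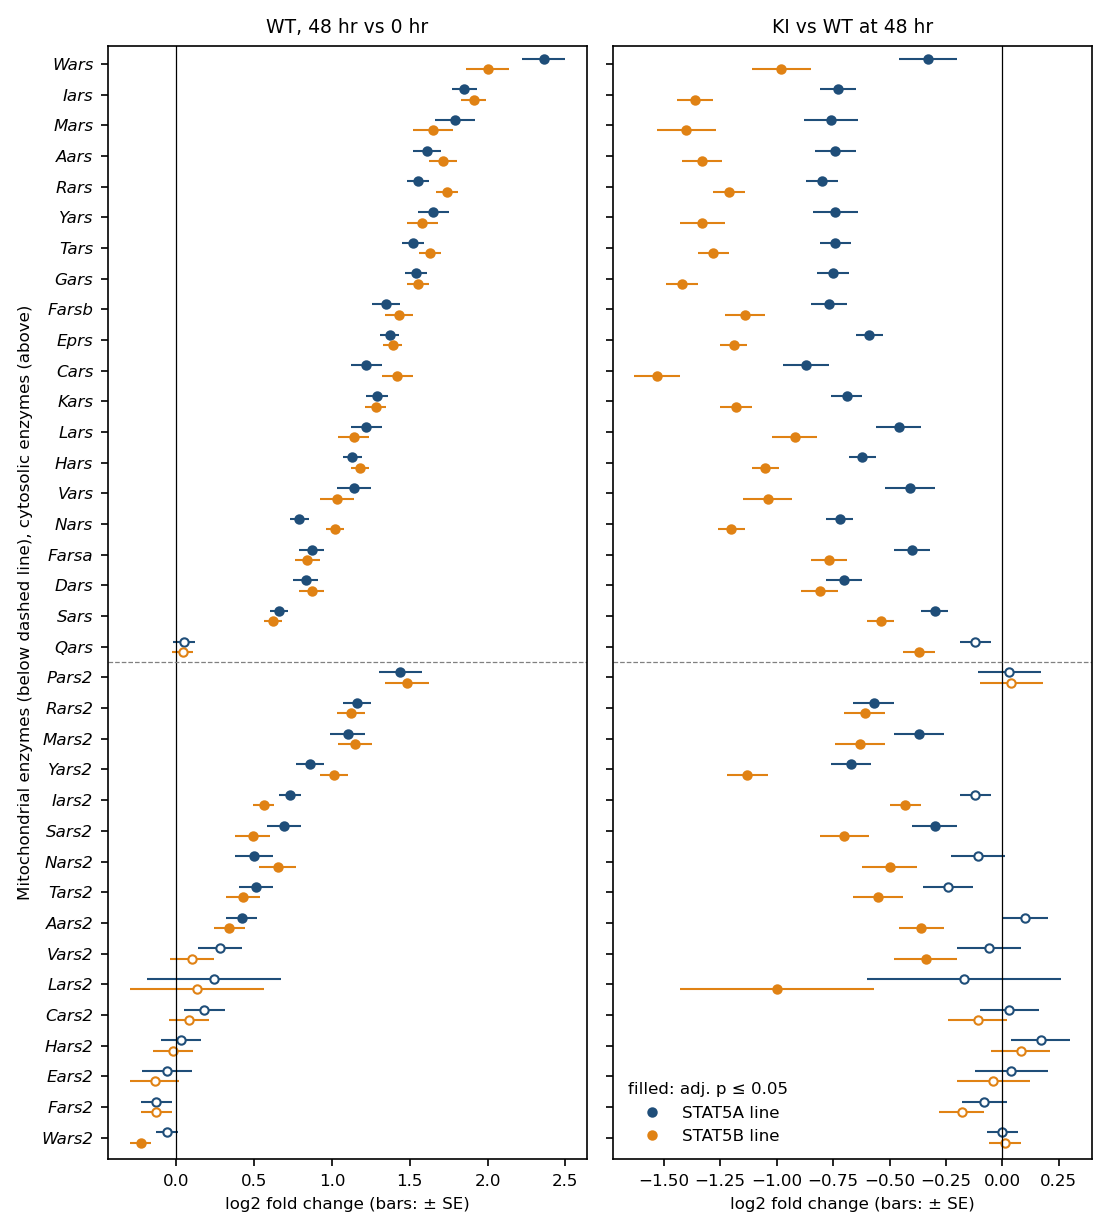
Log2 fold changes (x axis, ± SE) of the 36 synthetases (y axis) in WT cells at 48 hr against 0 hr (left) and in KI against WT cells at 48 hr (right), with the STAT5A line in blue and the STAT5B line in orange; filled points have an adjusted p of at most 0.05. Most cytosolic enzymes, above the dashed line, lie right of 0 on the left and left of 0 on the right, Qars lies near 0 on the left, and the mitochondrial enzymes below the line are spread around smaller values.

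The mitochondrial enzymes responded less evenly. At 48 hr, 9 of 16 rose in WT cells of each line, and these were the same 9 genes (Aars2, Iars2, Mars2, Nars2, Pars2, Rars2, Sars2, Tars2 and Yars2), beside 34.1% and 33.1% of all genes. Over all 16 the median log2 fold change was 0.46 for STAT5A and 0.39 for STAT5B, and over the 15 other than Lars2 it was 0.50 and 0.43. Libraries of the 2 times did not overlap for 12 and 11 of the 16, each higher at 48 hr, as were 42.3% and 42.8% of all genes. The only decrease that passed was Wars2, the tryptophan enzyme of mitochondria, in the STAT5B line (−0.23 ± 0.07, edgeR adjusted p = 0.00508), where its RPKM was 3.08, 3.11 and 3.18 at 0 hr and 3.15, 2.89 and 2.97 at 48 hr. Those libraries overlapped, the call was lost without any one of 5 of the 6 libraries (−0.16 to −0.12), with all 48 libraries (−0.15) and without a filter (−0.13), and Wars2 had −0.06 (0.455) in the STAT5A line.

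Pars2 (chr4:106651069-106655282), the mitochondrial proline enzyme, had the largest mitochondrial rise. Its RPKM was 1.3, 1.02 and 1.19 at 0 hr and 3.85, 3.80 and 3.38 at 48 hr in the STAT5A line, and 0.999, 1.1 and 1.2 against 3.77, 3.17 and 3.46 in the STAT5B line. Log2 fold changes were 1.44 ± 0.14 (edgeR adjusted p = 2.02e-11) and 1.48 (1.34e-11). Rars2, the arginine enzyme of mitochondria, went from 4.41, 5.56 and 6.25 to 12.6, 14.2 and 15 in the STAT5A line (log2 fold change 1.16 ± 0.09) and from 5.44, 5.74 and 6.13 to 14.1, 14.1 and 14.2 in the STAT5B line (1.12). Mars2, the mitochondrial methionine enzyme, went from 2.96, 2.61 and 3.27 to 7.36, 7.05 and 7.44 (1.1 ± 0.11) and from 3.17, 3.17 and 2.94 to 7.73, 8.08 and 7.50 (1.15). For all 3 genes the 0 hr and 48 hr libraries were well separated in both lines. All WT responses in a line use the same 0 hr libraries, so the times are not independent of each other.

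The time course split the cytosolic set at 4 hr. At that time 10 cytosolic mRNAs had risen in both lines (Aars, Cars, Eprs, Iars, Lars, Mars, Rars, Sars, Tars and Wars), while Dars, Qars and Vars had fallen in both. In STAT5A cells 10 rose and 4 fell, where 29.5% of all genes rose and 28.9% fell. For STAT5B 10 rose and 3 fell, beside 25.1% and 24.5% of all genes, so that the share of cytosolic members that fell at 4 hr was below the share of all genes. Vars, the valine enzyme, had log2 fold changes of −0.61 ± 0.11 (edgeR adjusted p = 7.89e-06) and −0.48 ± 0.11 (0.000231) at 4 hr and of 1.14 and 1.03 at 48 hr. Of the mitochondrial enzymes, Iars2, Pars2 and Tars2 rose at 4 hr in both lines and Cars2 and Sars2 fell. In all, 5 of 16 rose and 5 fell in the STAT5A line and 4 rose and 2 fell in the STAT5B line, shares near or below those of all genes. Pars2 in WT cells of the STAT5B line had an RPKM of 3.23, 3.25 and 3.42 at 4 hr, of 4.05, 4.36 and 4.2 at 24 hr and of 3.77, 3.17 and 3.46 at 48 hr, so that the 4 hr values lay below those at 24 hr and overlapped those at 48 hr. In STAT5A cells at 4 hr its RPKM was 2.93, 0.843 and 2.88, the low value being the library with few reads on transcripts. Without that library 27 of the 36 passed in the STAT5A line at 4 hr (18 up and 9 down) in place of 24 (15 up and 9 down). On log2(RPKM + 1), limma called 18 up and 1 down in the STAT5B line in place of 14 and 5. The number of calls at 4 hr depends on the libraries fitted. With only the groups compared, 6 members rose and 2 fell in the STAT5A line, and with all 48 libraries 13 rose and 3 fell there and 10 rose and 2 fell in the STAT5B line, so that some of the genes named for this time did not pass in these fits.

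By 24 hr, 19 cytosolic mRNAs had risen in each line and only Qars, in the STAT5A line, had fallen (−0.17), beside 30.1% and 29.5% of all genes that rose and 28.9% and 30.1% that fell. The mitochondrial counts were 9 and 8 risen and none fallen. The WT estimate was higher at 48 hr than at 24 hr in both lines for 19 of the 20 cytosolic and for 6 of the 16 mitochondrial members, a description with no test. The share of all genes with this order was not counted. The median over all genes was −0.04 at 24 hr in each line and −0.12 and −0.13 at 48 hr. Wars was the cytosolic exception, with its highest levels at 24 hr. Its RPKM at 24 hr was 99.2, 108.1 and 138.6 for STAT5A and 117.2, 122.7 and 109.95 for STAT5B, above all 48 hr values of the same line. The log2 fold changes against 0 hr were 1.16 and 1.06 at 4 hr, 3.02 ± 0.14 and 2.80 at 24 hr, and 2.36 and 2.00 at 48 hr.

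**Figure D2:**
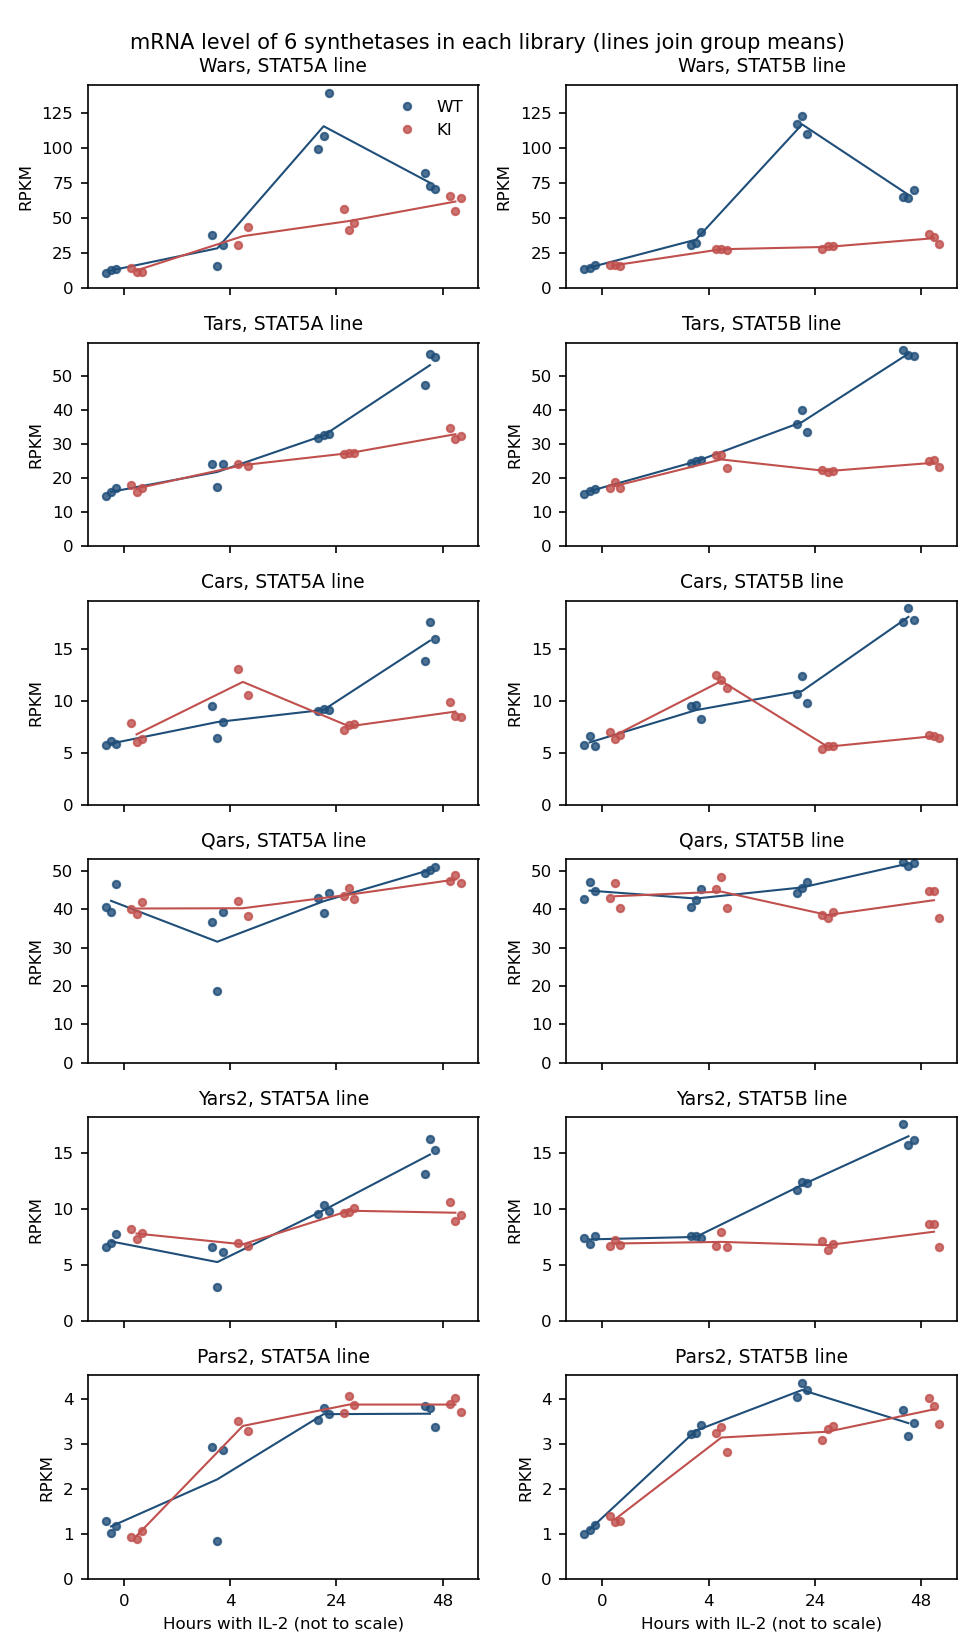
RPKM (y axis) of Wars, Tars, Cars, Qars, Yars2 and Pars2 in each library at 0, 4, 24 and 48 hr with IL-2 (x axis, not to scale), with WT in blue, KI in red and lines through the group means. WT Wars peaks at 24 hr, WT Tars and Cars climb to 48 hr, when the KI libraries lie below them, and Pars2 reaches the same range in WT and KI cells at 48 hr.

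KI and WT cells were then compared at each time. At 0 hr few members differed. For STAT5A 0 of 36 members passed with edgeR and 0 with DESeq2, beside 2.56% of all genes higher and 0.88% lower by edgeR. An unadjusted p below 0.05 was found for 5 of the 36 members and for 2523 of the 15566 genes tested. In STAT5B cells Aars was higher in KI cells (0.33, edgeR adjusted p = 0.00704) and Wars2 lower (−0.31, 0.00195), beside 13.6% and 9.26% of all genes. Neither passed with all 48 libraries, and limma on log2(RPKM + 1) called 1 member higher and 0 lower. At 4 hr the direction in the STAT5A line depends on the scaling and on single libraries. There 5 members were higher (Cars, Lars, Yars, Fars2 and Pars2) and 2 lower (Mars2 and Wars2), beside 11.9% and 12.7% of all genes, but DESeq2's size factors turned this to 3 higher and 5 lower, and by limma on log2(RPKM + 1) it was 22 and 0. Without replicate 2 of the WT cells 1 was higher and 3 lower, without replicate 1 of the KI cells none passed, and without replicate 2 of the KI cells 3 were higher and 1 lower. Leaving out replicate 1 or 3 of the WT cells gave 12 and 11 that passed.

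For STAT5B at 4 hr, 2 members were higher in KI cells and 9 lower, beside 14.5% and 12.8% of all genes, and limma on log2(RPKM + 1) called 2 and 2. In place of 11, 4 to 8 passed when any 1 library of these groups was left out. Cars was among the higher ones, with RPKM values of 9.49, 9.64 and 8.23 in WT and 12.5, 12 and 11.3 in KI cells (log2 fold change 0.27, edgeR adjusted p = 0.0303). At 24 and 48 hr Cars was lower in KI cells. Tars2, the threonine enzyme of mitochondria, had the largest decrease at this time, with 10.0, 10.1 and 9.24 in WT and 6.35, 5.80 and 5.75 in KI cells (−0.83 ± 0.11, adjusted p = 4.6e-07). The longest transcript of Tars2 was not its transcript with the most reads. Its value with that other transcript is not given here. Fewer members passed in this comparison when the transcripts with the most reads were used.

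At 24 hr the cytosolic enzymes were lower in KI cells of both lines, and more of them in the STAT5B line. Most B cell and myeloid markers, given below, were higher in KI cells at this time. In STAT5A cells 14 of 20 were lower and none higher, where 9.01% of all genes were lower and 9.49% higher. For STAT5B all 20 were lower, with a median log2 fold change of −0.82, where 26.3% of all genes were lower and 24.1% higher. The same 14 genes were lower in both lines, and Farsa, Lars, Mars, Qars, Sars and Yars passed in the STAT5B line alone. Whether these 6 differ between the lines at 24 hr was not tested. The mitochondrial counts were 1 lower (Wars2) in the STAT5A line and 10 lower in the STAT5B line. Wars again had the largest difference. Its RPKM was 56.1, 41.1 and 46.3 in STAT5A KI cells and 28.1, 30.1 and 30.0 in STAT5B KI cells, far below the WT values given above, with log2 fold changes of −1.34 ± 0.13 (edgeR adjusted p = 1.02e-08) and −2.02 ± 0.13 (1.46e-14). The count in the STAT5A line was the less stable one: 4 of the 36 members passed with limma on log2(RPKM + 1) and 3 with all 48 libraries, in place of 15, and 9 passed without the first STAT5A KI replicate.

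At 48 hr, 19 of 20 cytosolic mRNAs were lower in STAT5A KI than in WT cells and all 20 in STAT5B KI cells, beside 22.8% and 30.5% of all genes, and none was higher, beside 21.5% and 33.1%. In STAT5B cells 14 were lower by at least 2-fold, where 9.81% of all genes were, and in the STAT5A line none, where 2.43% were. The median log2 fold change was −0.71 for STAT5A and −1.18 for STAT5B, against 0.04 and 0.10 over all genes. Each of the 20 had all KI libraries below all WT libraries in both lines, a pattern held by 26.1% and 32.1% of all genes, while 34.2% and 43.4% had all KI libraries above. On log2(RPKM + 1) limma called 14 and 19 of them lower. The 8 enzymes of the complex had medians of −0.70 and −1.18 and the other 12 of −0.73 and −1.17. The WT libraries at 48 hr also serve as the 48 hr values of the IL-2 response, so the 2 comparisons are not independent.

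Cars, Gars and Mars had the lowest KI fold changes over both lines. For Cars, RPKM at 48 hr was 13.9, 17.6 and 16.0 in WT and 9.92, 8.59 and 8.44 in KI cells of the STAT5A line (log2 fold change −0.87 ± 0.10, edgeR adjusted p = 3.3e-09), and 17.6, 19.0 and 17.8 against 6.74, 6.66 and 6.43 in the STAT5B line (−1.53 ± 0.10, 5.83e-16). The STAT5B KI values lay close to the 0 hr WT values of 5.71, 6.61 and 5.68. For Gars, the glycine enzyme, RPKM was 87.4, 101.8 and 92.6 in WT and 61.5, 55.9 and 56.1 in KI cells of the STAT5A line (−0.75 ± 0.07), and 105.03, 104.2 and 102.9 against 44.3, 43.9 and 35.1 in the STAT5B line (−1.42 ± 0.07). Its STAT5B KI libraries remained above the 0 hr WT values of 28.1, 32.2 and 34.2. For Mars, RPKM was 29.1, 26.1 and 26.0 in STAT5A KI cells (−0.76 ± 0.12, adjusted p = 4.92e-06) and, in the STAT5B line, 47.6, 46.4 and 47.6 in WT and 20.2, 20.2 and 16.4 in KI cells (−1.40 ± 0.13, 6.49e-12).

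Tars had RPKM values of 34.9, 31.5 and 32.6 in STAT5A KI cells (log2 fold change −0.74 ± 0.07, edgeR adjusted p = 3.58e-11) and of 25.1, 25.4 and 23.3 in STAT5B KI cells (−1.28 ± 0.07, 3.33e-18). Iars had 26.1, 24.1 and 24.8 (−0.73, 3.5e-09) and 18.7, 17.9 and 16.6 (−1.36, 1.35e-16). In both genes the KI libraries of the STAT5B line lay below those of the STAT5A line. Aars had 27.1, 23.7 and 24.6 in STAT5A KI cells (−0.74) and 19.9, 20.2 and 17.3 in STAT5B KI cells (−1.33). Rars had 42.2, 38.5 and 38.3 (−0.80) and 32.7, 33.5 and 28.9 (−1.21). The STAT5B KI values of these 4 genes were again the lower ones in every library. Wars had an estimate closer to 0 at 48 hr than at 24 hr, with 65.7, 55.0 and 64.4 in STAT5A KI cells (−0.33 ± 0.13, adjusted p = 0.0343) and 38.9, 36.3 and 31.6 in STAT5B KI cells (−0.98 ± 0.13, 4.42e-08). The STAT5A call for Wars was lost without replicate 1 of the WT cells (−0.26) or replicate 2 of the KI cells (−0.32). Qars had 47.5, 49.0 and 46.9 in STAT5A KI cells (−0.12, 0.163) and 44.7, 44.8 and 37.7 in STAT5B KI cells (−0.37, 2.7e-05).

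The mitochondrial enzymes were lower in fewer cases. For STAT5A 4 of 16 were lower at 48 hr (Mars2, Rars2, Sars2 and Yars2), a share near the 22.8% of all genes, and the median log2 fold change was −0.10. That count was 2 by limma on log2(RPKM + 1), 3 with all 48 libraries and 6 with DESeq2. In STAT5B cells 10 of 16 were lower, with a median of −0.39, where 30.5% of all genes were lower. Without Lars2, which is described below, 9 of 15 were lower there, with a median of −0.36. KI libraries lay entirely below WT libraries for 5 members and entirely above for 2 in the STAT5A line, and below for 10 in the STAT5B line. Of all genes, 26.1% and 32.1% lay entirely below and 34.2% and 43.4% entirely above, so the STAT5A count is near the background. Yars2, the tyrosine enzyme of mitochondria, was chosen for mention after its values were seen, as the mitochondrial member with the lowest KI fold change in the STAT5A line. Its RPKM was 13.1, 16.2 and 15.2 in WT and 10.6, 8.91 and 9.43 in KI cells of the STAT5A line (−0.67, edgeR adjusted p = 2.62e-07), and 17.6, 15.7 and 16.1 against 8.6, 8.66 and 6.6 in the STAT5B line (−1.13, 6.85e-13). Both KI differences lay within the range of the cytosolic members, which ran from −0.87 to −0.12 in the STAT5A line and from −1.53 to −0.37 in the STAT5B line.

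Rars2 was lower by a similar amount in both lines, with 10.6, 8.94 and 9.63 in STAT5A KI cells (−0.57, edgeR adjusted p = 2.69e-06) and 9.83, 9.87 and 9.67 in STAT5B KI cells (−0.61, 3.35e-07). Mars2 had 5.83, 5.75 and 6.00 (−0.37, 0.00639) and 5.68, 5.46 and 4.78 (−0.63, 6e-06). Pars2 libraries of both genotypes overlapped, at 3.90, 4.02 and 3.72 in STAT5A KI cells (0.03, 0.897) and 4.02, 3.85 and 3.45 in STAT5B KI cells (0.04, 0.798). Thus the mitochondrial mRNA with the largest rise in WT cells had no detected KI difference at 48 hr, although in the STAT5B line it was lower at 24 hr (−0.39, adjusted p = 0.0174). Aars2, the alanine enzyme of mitochondria, had 4.72, 5.21 and 5.37 in STAT5A KI against 4.69, 4.72 and 4.35 in WT cells (0.10, 0.428), and 4.11, 3.77 and 3.53 against 5.11, 4.18 and 4.55 in the STAT5B line (−0.36, 0.0023). Vars2, the valine enzyme of mitochondria, passed in the STAT5B line alone as well, with 6.56, 5.84 and 5.52 in KI and 7.11, 7.00 and 7.35 in WT cells (−0.34, 0.035) and −0.06 in the STAT5A line. The KI effects of the lines differed for Aars2 (−0.46) and did not pass for Vars2, whose STAT5B call was also lost without replicate 3 of the KI cells (−0.35). Wars2 had estimates of 0.00 and 0.01.

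The IL-2 response itself was compared between the genotypes as an interaction. The difference in response at 48 hr, KI minus WT, was negative for 18 of the 20 cytosolic members in the STAT5A line. It was negative for all 20 in the STAT5B line, beside 16.2% and 25.6% of all genes. For Qars in the STAT5B line this is not a smaller response, since no rise was detected in WT cells and it fell in KI cells. Qars and Wars were the 2 exceptions in the STAT5A line, and Wars had −0.31 (edgeR adjusted p = 0.221) there and −1.07 in the STAT5B line. For Aars the difference in response was −0.96 and −1.65, and for Cars −1.05 and −1.63. In the STAT5A line the difference was negative for 3 mitochondrial members, Mars2, Rars2 and Yars2. The Mars2 call was lost without any of 5 libraries and the Rars2 call without replicate 1 of the 0 hr KI cells. In the STAT5B line the difference was negative for 5 and positive for 1, Wars2, which had fallen in WT cells of that line. A positive difference was found for 11.8% and 23.8% of all genes. Within KI cells alone, 17 cytosolic mRNAs still rose from 0 to 48 hr in the STAT5A line, with a median log2 fold change of 0.69, where 31.8% of all genes rose and 30.6% fell. In STAT5B KI cells 7 rose and 2 fell (Nars and Qars), with a median of 0.15, where 24.7% rose and 26.9% fell. The falls depend on the setting. Over all 36 members 12 rose and 3 fell in these cells, in place of which limma on log2(RPKM + 1) gave 18 and 0 and the fit of all 48 libraries 8 and 0, so that the falls of Nars and Qars did not pass in either.

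The 2 KI effects at 48 hr were compared with each other in the same fit. The estimate was more negative in the STAT5B line for all 20 cytosolic members and for 14 of the 16 mitochondrial ones. Over all genes the median difference was 0.002, and the share with a more negative estimate was not counted. The difference passed for 17 cytosolic and 3 mitochondrial members, each more negative in the STAT5B line, where 7.83% of all genes were more negative and 3.2% less so. The cytosolic differences that passed ranged from −0.37 for Farsa and Farsb to −0.67 for Cars and Gars. Pars2 and Wars2 were the 2 members without a more negative estimate. The number that passed depended on the libraries, with 12 in place of 20 without replicate 3 of the 48 hr STAT5B KI cells and 2 with all 48 libraries.

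The balance of the summed levels of the 2 compartments shifted. Over the libraries of the STAT5A line, the summed RPKM of the 20 cytosolic members was 394.5, 403.3 and 451.3 in WT cells at 0 hr, 1051.9, 1120.2 and 1171.3 at 48 hr, and 737.0, 749.3 and 804.3 in KI cells at 48 hr. For STAT5B it was 419.2, 455.1 and 455.2, then 1165.7, 1171.5 and 1174.6, and 532.3, 606.3 and 613.2 in KI cells. The 15 mitochondrial members other than Lars2 summed to 74.5 to 85.2, 127.9 to 136.7, and 118.9 to 119.5 in the STAT5A line, and to 85.4 to 88.9, 134.03 to 138.2, and 98.7 to 114.3 in the STAT5B line. The ratio of the 2 sums, which would leave out a factor common to all transcripts of a library, was 5.25 to 5.41 in STAT5A line WT cells at 0 hr, 8.23 to 8.71 at 48 hr, and 6.20 to 6.73 in KI cells at 48 hr. In STAT5B cells it was 4.91 to 5.16, 8.50 to 8.70, and 5.36 to 5.55. WT libraries at 48 hr thus lay above every library at 0 hr and every KI library at 48 hr of the same line. The WT library of the STAT5A line at 4 hr with 44.9% of its reads on transcripts had a ratio of 6.76, beside 5.21 and 5.20 in the other 2 of its group, so the ratio is not free of library quality. At 24 hr the STAT5B line had 7.23 to 7.42 in WT and 4.67 to 5.03 in KI cells.

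**Figure D3:**
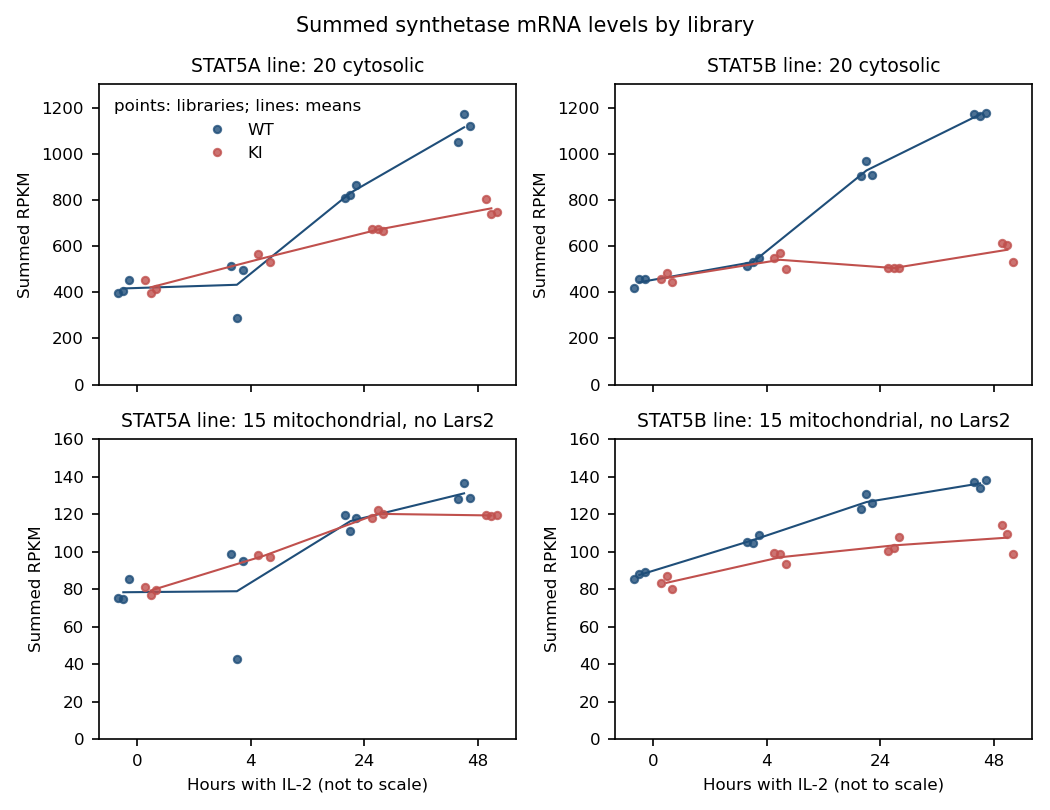
Summed RPKM (y axis) of the 20 cytosolic synthetases (top) and of the 15 mitochondrial ones other than Lars2 (bottom) in each library at 0, 4, 24 and 48 hr with IL-2 (x axis, not to scale), with WT in blue, KI in red and lines through the means. The WT and KI cytosolic sums separate at 24 and 48 hr in both lines, to 1165.7 and above against at most 613.2 in the STAT5B line at 48 hr; the low WT point at 4 hr in the STAT5A line is the library with 44.9% of its reads on transcripts.

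The identity of the cells was checked with markers. The 7 markers listed for CD8 T cells were Cd8a, Cd8b1, Cd3d, Cd3e, Cd3g, Lck and Thy1. Only Cd8a and Cd8b1 among them tell CD8 from CD4 T cells, so the sum describes T cells in general. At 48 hr median Cd8a was 236.2 in WT and 321.3 in KI cells for STAT5A and 217.9 and 295.3 for STAT5B. Cd8b1 had 314.1 and 533.8, and 287.9 and 500.5. The 7 (Thy1 the most abundant) summed to an RPKM of 2029.9 to 2163.5 in WT and 2384.9 to 2621.6 in KI cells of the STAT5A line at 48 hr. In the STAT5B line the sums were 2018.6 to 2052.8 and 2241.0 to 2498.7. Of these 7, 5 were higher in KI cells of each line and 1 lower in the STAT5B line. Thy1 itself went the other way from the sum, with medians of 702.6 in WT and 568.8 in KI cells for STAT5A and of 708.1 and 507.3 for STAT5B. Markers of other cells were lower in level and moved with the genotype. The 6 B cell markers summed to 11.9 to 35.7 in WT and 91.0 to 107.97 in KI cells of the STAT5A line and to 9.94 to 12 and 111.4 to 117.6 in the STAT5B line, and all 6 were higher in KI cells of both lines; the most abundant, Cd79a, had medians of 9.76 and 38.6 for STAT5A and of 2.83 and 45.0 for STAT5B. Of the 8 myeloid markers 7 and 8 were higher, with sums of 3.14 to 7.83 against 23.2 to 65.0 and of 3.21 to 4.54 against 60.9 to 96.2 and Lyz2 the most abundant.

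Of the 3 CD4 T cell markers 2 and 3 were higher in KI cells at 48 hr, of the 5 erythroid markers 0 and 4, and of the 4 NK cell markers 1 and 2 were higher and 1 and 1 lower. The myeloid marker C1qa had 3 or fewer reads in STAT5B line WT cells at 48 hr. In WT cells, all 6 B cell and all 8 myeloid markers fell from 0 to 48 hr in both lines, while 19 of the 20 cytosolic synthetases rose in each line. Of the 4 NK cell markers 3 and 2 rose and none fell, with median log2 fold changes of 1.23 and 0.86. All 3 CD4 T cell markers and 4 of the 5 erythroid markers fell in each line. Of the 7 CD8 T cell markers 2 and 1 rose and 2 and 5 fell. At 0 hr in the STAT5B line, the 6 B cell markers already summed to 47.9 to 55.5 in WT and 197.7 to 202.9 in KI cells, and the 5 erythroid markers to 17.7 to 55.2 and 176.5 to 446.1. All 6 B cell, all 5 erythroid, 7 of 8 myeloid and 2 of 3 CD4 T cell markers were higher in KI cells there, all 7 CD8 T cell markers were lower (median −0.36) and 2 of 4 NK cell markers were lower, and 2 of the 36 synthetases differed there, neither of which passed with all 48 libraries. At 24 hr, all 6 B cell, 7 of 8 myeloid and 2 of 3 CD4 T cell markers were higher in STAT5A KI cells. In STAT5B KI cells all 6 B cell (median 2.92), all 8 myeloid (median 3.47), all 3 CD4 T cell and 4 of 5 erythroid markers were higher. Of the 4 NK cell markers 0 and 1 were higher and 1 and 2 lower. Of the 7 CD8 T cell markers 1 and 1 were higher and 0 and 1 lower. The part of other cell types in the KI differences of the synthetases at 24 and 48 hr was not tested.

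Genes that work next to the synthetases were described from lists. All 3 scaffold genes of the multisynthetase complex rose in WT cells at 48 hr in both lines and all 3 were lower in KI cells. Aimp2 had the largest rise, with log2 fold changes of 2.10 ± 0.10 in each line, and Aimp1 the smallest, at 0.54 and 0.59. Eef1e1, the gene of the small scaffold protein AIMP3, was lowest in KI cells, at −1.13 ± 0.09 and −1.70 ± 0.10. Of the 12 genes for tRNA charging partners and proofreading, which include the amidotransferase that makes glutaminyl-tRNA in mitochondria, 10 rose and 1 fell in the STAT5A line and 8 rose and 1 fell in the STAT5B line, beside 34.1% and 33.1% of all genes that rose. Aarsd1, an editing protein related to the alanine enzyme, led with 1.71 and 1.62 and was lower in KI cells, at −0.64 and −1.17, and Prorsd1 fell (−0.68 and −0.38). In KI cells 6 and 9 of these 12 were lower, beside 22.8% and 30.5% of all genes.

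Of 5 cytosolic elongation factors, 2 rose and 3 fell in WT cells of each line at 48 hr, where 34.1% and 33.1% of all genes rose and 37.7% and 36.8% fell. Eef1d, the exchange factor subunit, was highest at 0.29 and 0.32, and Eef1a1, which carries charged tRNA to the ribosome, lowest at −0.55 ± 0.08 (edgeR adjusted p = 2.72e-07) and −0.52 ± 0.08 (6.93e-07). In KI cells 2 and 3 of the 5 were lower, beside 22.8% and 30.5% of all genes, Eef1d most (−0.51 and −0.73). The 8 mitochondrial translation factors rose in 8 and 7 cases, with Tsfm, the exchange factor of mitochondria, at 2.08 ± 0.17 and 1.85 ± 0.17, and 6 were lower in KI cells of each line, with Gfm1 at −0.73 and −1.28. Mtif3, an initiation factor, was higher in STAT5B KI cells (0.39, adjusted p = 0.000282).

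The amino acid response, which several cytosolic synthetase genes share through ATF4, was mixed in WT cells. Of 16 genes, 6 and 7 rose and 7 and 7 fell at 48 hr in the STAT5A and STAT5B lines. Of all genes, 34.1% and 33.1% rose and 37.7% and 36.8% fell. The rise was at least 2-fold for all 6 and all 7, beside 14.3% and 14.6% of all genes. The fall was at least 2-fold for 4 in each line, beside 3476 and 3223 of the 15566 genes. Asns, the asparagine synthetase, rose by log2 fold changes of 4.86 ± 0.47 (edgeR adjusted p = 2e-11) and 5.07 ± 0.47 (6.23e-12), whereas Ppp1r15a, which restores eIF2 after stress, fell, with −5.04 ± 0.14 and −4.89 ± 0.14. In KI cells 11 of the 16 were lower in each line and 1 and 3 higher, beside 22.8% and 30.5% of all genes lower and 21.5% and 33.1% higher, with Asns at −2.26 ± 0.40 and −3.67 ± 0.43 and Slc7a11, a cystine transporter, at 0.67 (adjusted p = 0.0507) and 1.95 ± 0.29 (2.93e-07). TTGCATCA was found in 3 of the 15 matched windows of this list (Chac1, Slc7a11 and Nupr1).

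RNA polymerase III transcribes the tRNA genes themselves, and 14 of its subunit and factor genes were read. In WT cells 8 and 9 rose and 3 and 3 fell at 48 hr, beside 34.1% and 33.1% of all genes that rose and 37.7% and 36.8% that fell. Maf1, the repressor of this polymerase, was lowest at −1.21 ± 0.18 and −1.28 ± 0.18. In KI cells 7 and 11 were lower and 3 and 3 higher, where 22.8% and 30.5% of all genes were lower and 21.5% and 33.1% higher, with Polr3d lowest at −0.78 ± 0.08 and −1.14 ± 0.09 and Maf1 highest at 0.57 ± 0.18 (edgeR adjusted p = 0.00848) and 0.85 ± 0.18 (9.89e-05). As reference genes, Myc rose by 1.08 and 1.99 in WT cells at 48 hr and was lower in KI cells, at −0.56 (edgeR adjusted p = 0.00867) and −1.20 (2.83e-07). Its RPKM in WT cells at 0 hr was 43.2, 53.5 and 20.3 for STAT5A and 21.7, 19.1 and 21.2 for STAT5B. At 48 hr it was 94.2, 96.9 and 94.6, and 93.0, 90.1 and 94.8. Whether the 2 Myc rises differ was not tested. Stat5a mRNA had KI estimates of 0.11 and 0.12 and Stat5b mRNA of 0.33 and 0.47 at 48 hr. The KI alleles change single amino acids, so these mRNA levels do not check the labels.

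Lars2, the mitochondrial leucine enzyme, could not be read like the other members. Its RPKM ran from 22.9 to 313.2 over the 47 libraries and made up 35.0 to 77.7% of the mitochondrial sum. For STAT5A WT libraries it was 94.2, 172.2 and 234.9 at 0 hr and 303.4, 174.8 and 204.3 at 48 hr, and in the STAT5B line 133.8, 83.8 and 143.04 and then 205.2, 135.2 and 104.9. The times overlapped in both lines, and the log2 fold changes were 0.24 ± 0.43 and 0.13 ± 0.43, with SE values above those of the other members. Its only KI difference that passed was at 48 hr in the STAT5B line, with 93.2, 79.6 and 63.4 in KI cells (−1.0 ± 0.43, edgeR adjusted p = 0.0423). Lars2 reads followed those of Mir6236, a microRNA gene elsewhere on the same chromosome. Lars2 spans chr9:123366927-123462675 and Mir6236 chr9:110281287-110281409, without overlap, and the ratio of their reads stayed between 29.9 and 48.4 over the 47 libraries, with a median of 41.1. Whether the reads assigned to Lars2 measure its mRNA was not tested, and its values may not be levels of that mRNA.

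**Figure D4:**
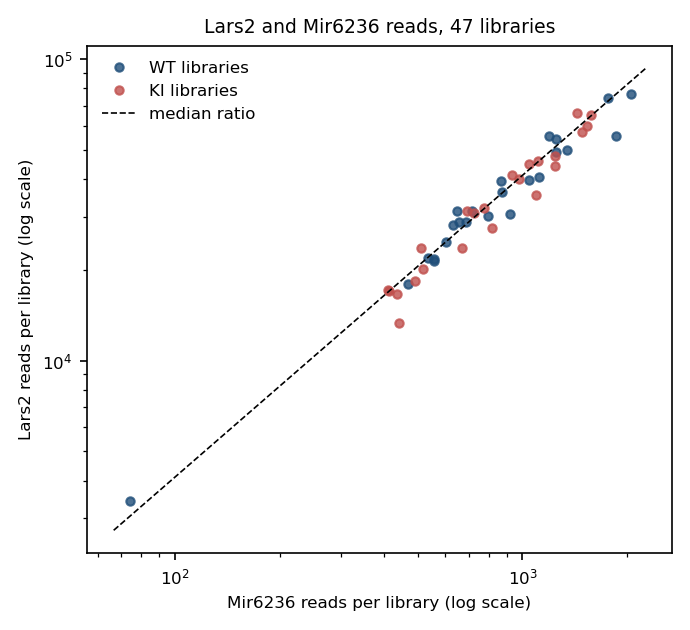
Reads per library on Lars2 (y axis, log scale) against reads on Mir6236 (x axis, log scale) in the 47 libraries, with WT in blue, KI in red and the median ratio of 41.1 as a dashed line. The points lie along the line, with ratios from 29.9 to 48.4.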

How the data were processed

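RNA-seq was analyzed from 48 libraries of splenic CD8+ T cells. Per the labels and the study's methods, the authors mapped single-end reads to mm10 (GRCm38) with TopHat2 2.0.11, kept uniquely mapped reads and deposited, for each RefSeq transcript, a read count and an RPKM value, the latter relative to transcript length and total mapped reads. The submitters' processing notes also name Bowtie2 2.2.6, SAMtools 0.1.8, bedtools 2.25.0 and edgeR. The counting program is not given in the sources used here.

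The longest transcript of each of 23992 symbols was kept (31682 transcripts were listed). Counts of 47 libraries were filtered with filterByExpr (minimum count 10), scaled by TMM and fitted with 16 group means by edgeR's quasi-likelihood test (edgeR 4.0.16, R 4.3.3), with Benjamini-Hochberg adjustment at 0.05 over all genes. The library left out was the third of the 4 hr STAT5A KI group. Alternatives were all 48 libraries, DESeq2 1.42.0 and its size factors, no filter, limma 3.58.1 on log2(RPKM + 1) and log2(RPKM + 0.1), fits on only the groups compared, the transcript with the most reads, a replicate block, and leaving out each replicate. The script was tested on simulated data. Positions and promoters are RefSeq's, and motif matches were counted by Python 3.11.15.

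Genes given by library were the 5 cytosolic and 3 mitochondrial members with the largest rise in WT cells at 48 hr over both lines among those passing in both, the 3 lowest and 2 highest KI fold changes among those passing in at least 1 line, the lowest WT fold change in each compartment, and Tars. The family was proposed, and the pathway lists, marker lists (CD8 T, CD4 T, B, myeloid, NK and erythroid cells) and motifs chosen, with earlier results of these data known, although the rule for members uses symbols only. Deviations from the group mean were correlated between libraries with the same replicate number. In the STAT5A line the values for WT cells against 0 hr were 0.206, 0.273 and 0.419 at 24 hr and 0.166, 0.117 and 0.192 at 48 hr. At 4 hr they were −0.226, 0.259 and 0.426, and in KI cells at 48 hr 0.185, 0.066 and 0.128. Libraries with different numbers were not compared, so a pairing was not shown, and the labels do not state one. Precision is limited by 3 libraries per group. Values of some single genes of the lists are not reported here.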

Additional observations from a re-analysis of the deposited data

Results flagged for a closer look

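The KI effect at 48 hr differed between the lines, by the contrast of the 2 KI effects in the edgeR fit with adjustment over all genes, for 20 members. Given as the log2 KI effect of the STAT5B line minus that of the STAT5A line, the cytosolic values were −0.67 for Cars, −0.67 for Gars, −0.65 for Wars, −0.63 for Iars, −0.63 for Mars, −0.63 for Vars, −0.59 for Eprs, −0.59 for Yars, −0.58 for Aars, −0.54 for Tars, −0.49 for Kars, −0.47 for Nars, −0.46 for Lars, −0.42 for Hars, −0.41 for Rars, −0.37 for Farsa and −0.37 for Farsb. The mitochondrial values were −0.46 for Aars2, −0.46 for Yars2 and −0.30 for Iars2. Beyond leaving out each replicate, groups of 3 libraries were not tested for outlying libraries. The number passing was 2 with all 48 libraries and 27 with only the groups compared, and leaving out the third STAT5B KI library of that time left 12. In the same contrast 2 of 3 CD4 T cell, 2 of 6 B cell, 2 of 8 myeloid and 2 of 5 erythroid markers were higher. No marker of these lists was lower, and the part of other cell types was not tested. The lines were bred separately, so a difference between the lines and a difference between the 2 mutations cannot be told apart.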

How the results depend on the processing

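No named gene with a called value changed sign under any alternative run. Of the 69 results for named genes, 7 were weaker with all 48 libraries, 2 without a filter, and 9 and 11 with limma at a pseudocount of 1 and 0.1. With only the groups compared 1 was weaker, and with the transcript of most reads 1. Leaving out 1 replicate at a time made 17 of 540 weaker. Numbers below are members of 36 that passed. With all 48 libraries, 12 in place of 19 passed in STAT5B line WT cells at 4 hr, 3 in place of 15 for STAT5A KI at 24 hr, 0 in place of 2 for STAT5B KI at 0 hr, 2 in place of 11 for STAT5B KI at 4 hr, 2 in place of 20 for the difference of the lines at 48 hr, and 8 in place of 15 for STAT5B KI cells at 48 against 0 hr. Without a filter 4 in place of 7 passed for STAT5A KI at 4 hr and 7 in place of 11 for STAT5B KI at 4 hr. With limma and a pseudocount of 1 or 0.1, 22 and 23 passed for STAT5A KI at 4 hr, 4 and 4 for STAT5A KI at 24 hr, 1 and 1 for STAT5B KI at 0 hr, 4 and 3 for STAT5B KI at 4 hr, and 8 and 7 for the difference of the lines. In STAT5B KI cells at 48 against 0 hr limma called 18 higher and 0 lower in place of 12 and 3. With only the groups compared, 8 in place of 24 passed in STAT5A line WT cells at 4 hr and 0 in place of 7 for STAT5A KI at 4 hr. With the transcript of most reads 7 passed for STAT5B KI at 4 hr. The causes were not tested.

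Leaving out 1 replicate at a time gave 23 to 27, 28 to 30 and 28 to 30 for STAT5A line WT cells at 4, 24 and 48 hr and 18 to 20, 27 to 27 and 28 to 29 for the STAT5B line. It gave 0 to 0, 0 to 12, 9 to 15 and 22 to 25 for STAT5A KI at 0, 4, 24 and 48 hr and 2 to 3, 4 to 8, 28 to 29 and 28 to 30 for STAT5B KI. For the interaction it gave 18 to 23 and 24 to 28, for the difference of the lines 12 to 21, and for KI cells at 48 against 0 hr 24 to 26 and 13 to 18. With the replicate number as a block, 9 in place of 7 passed for STAT5A KI at 4 hr, no count moved by more than 1.5 times and none of the 69 results for named genes changed its call. The labels state no pairing.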
